A study of Mus musculus with 4 samples.

Results

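The respiratory chain genes described here are 100 gene symbols of the mouse liver, 87 encoded in the nucleus and 13 in the mitochondrial genome. They were chosen by name: symbols starting with Nduf, Uqcr, Atp5, mt-Nd, mt-Co, mt-Atp or mt-Cytb, symbols starting with Cox and a number from 4 to 8, and Sdha, Sdhb, Sdhc and Sdhd, with at least 1000 unique molecular identifiers (UMIs, one per captured transcript) over 3 libraries together. Of 54456 symbols in the files, 126 matched the names at any count, and the rule itself uses no difference between libraries, though it was set with earlier results of these data known. Ndufaf5 (1146 UMIs) and Ndufaf6 (1169 UMIs) were just inside the limit, and the pseudogene Cox7c-ps1 (986 UMIs) was just outside. The name does not cover subunits alone: 8 members, the Ndufaf genes, are assembly factors that help build complex I and are absent from the finished enzyme.

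The respiratory chain passes electrons from NADH and succinate through complexes I to IV to oxygen, and complex V, ATP synthase, uses the proton gradient this builds to make ATP. Complexes I, III, IV and V are mosaics of subunits from both genomes, whereas all subunits of complex II are nuclear. Mitochondrial genes are transcribed together as long precursors from mitochondrial DNA inside the organelle, while each nuclear gene has its own promoter and its protein is imported. In the liver, hepatocytes are rich in mitochondria, and the non-parenchymal cells measured here include sinusoidal endothelium, macrophages and lymphocytes.

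The study profiled liver non-parenchymal cells of C57BL/6J mice aged 30 weeks, that differed in feeding (high fat diet, HFD) and physical exercise, by 10x Genomics 3′ single-cell RNA sequencing (v3 chemistry). Livers were dissociated enzymatically, red cells were lysed and dead cells were depleted. The 3 libraries used here are labelled S, HFD_sed and HFD_EXE, and a library labelled E was not analysed here. Their labels differ only in these names, whose letters S, sed and EXE are not spelled out, and they do not say how many animals each library holds. With 1 library per group, diet, exercise, animal and library preparation cannot be told apart, and no test between groups was made. The 95% intervals given below cover counting error only. They are exact for levels (Poisson), for ratios of single genes or sums (conditional binomial) and for shares of cells (Clopper-Pearson). Those for differences in the mitochondrial-to-nuclear ratio are approximate: the bounds of each library's exact binomial interval were combined as the root of their summed squares.

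The files held 11660, 11752 and 11280 cell barcodes for S, HFD_sed and HFD_EXE, against 5000 to 6000 captured cells per sample in the labels. After filters on depth, mitochondrial share and doublets, 10212, 10740 and 10172 cells remained, with median depths of 6150, 4179.5 and 4917.5 UMIs. Pairs of these libraries shared 30, 30 and 43 barcodes. Cells were clustered without the 100 members, so member levels did not shape the clusters, and the 29 clusters were named from marker genes. A class is called by the cell type its markers resemble (for example LSEC, liver sinusoidal endothelial cell), and each name stands for "LSEC-like" and so on. These names were rebuilt here and can differ from the study's. Clusters outside the classes held 3.86%, 9.63% and 8.28% of the kept cells in S, HFD_sed and HFD_EXE. The libraries filled the classes from different clusters: LSEC came mainly from cluster 1 in S (69.6%), cluster 3 in HFD_sed (85.0%) and cluster 0 in HFD_EXE (83.8%). T cells came mainly from clusters 11 and 10 in S and HFD_EXE and from cluster 5 in HFD_sed (60.4%). A Kupffer cluster of low depth, cluster 8, held 26.4%, 52.3% and 25.5% of the Kupffer class in S, HFD_sed and HFD_EXE. A share of 0.45 of the hepatocyte markers was raised in it, beside 0.93 of the Kupffer markers. With doublets kept, a cluster carrying both marker sets held 678, 12 and 15 cells in S, HFD_sed and HFD_EXE. At resolution 2 a hepatocyte cluster held 875, 13 and 45 cells, with a median mitochondrial share of 7.66%. At that resolution the LSEC class held 3292, 2057 and 3852 cells, against 3818, 2470 and 5074 in the main setting. The Kupffer class held 2175, 711 and 1037 cells, against 2591, 705 and 1045. Whether LSEC of S also held hepatocyte-like barcodes was not tested. Mitochondrial members took 4.04%, 2.90% and 3.83% of UMIs in cluster 8 and 1.42%, 1.58% and 2.12% in cluster 2. Of 20 hepatocyte marker genes, 20 were detected in each of the 9 classes that had at least 100 cells in every library, and together they took 0.110% to 0.310% of such a class's UMIs in S, 0.0449% to 0.149% in HFD_sed and 0.0755% to 0.208% in HFD_EXE.

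The nuclear members together took 1.13% of all LSEC UMIs in S, 1.12% in HFD_sed and 1.04% in HFD_EXE, and the mitochondrially encoded members took 2.36%, 2.33% and 2.44%. In LSEC the 13 mitochondrial genes therefore gave more UMIs than the 87 nuclear genes, with ratios of 2.09, 2.08 and 2.34. Conventional dendritic cells had more UMIs from the nuclear genes. Their nuclear share was 1.63%, 1.76% and 1.68% in S, HFD_sed and HFD_EXE, and their mitochondrial share only 1.0%, 0.965% and 1.29%, a ratio below 1 in all 3 libraries (0.615, 0.549 and 0.769). The monocyte class was also below 1 in all 3 libraries, and in HFD_sed it was lower still, at 0.519. NK or ILC1 cells and plasmacytoid dendritic cells were below 1 in S and HFD_sed. B cells resembled LSEC, with nuclear shares of 1.07%, 1.11% and 1.07% and mitochondrial shares of 2.08%, 2.03% and 2.42%.

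Monocytes or monocyte-derived macrophages carried the highest nuclear share among the 9 classes with at least 100 cells in each library in HFD_sed and HFD_EXE (1.81% and 1.74%), and were close to dendritic cells in S (1.61%). Neutrophils are short-lived cells known for few mitochondria and reliance on glycolysis. They had the lowest nuclear share of these classes in each library, at 0.897%, 0.700% and 0.878% in S, HFD_sed and HFD_EXE. Their mitochondrial share, at 1.13%, 0.786% and 1.13%, was the lowest in HFD_sed and HFD_EXE. In S that of conventional dendritic cells was lower (1.002%). Mitochondrial UMIs thus exceeded nuclear UMIs in neutrophils of each library, with ratios of 1.26, 1.12 and 1.28. Whether the number of mitochondria accounts for the low nuclear share was not tested. The order of the classes by nuclear share was thus not the order by mitochondrial share: LSEC, B cells and other vascular endothelium were among the 4 lowest of the first and the 4 highest of the second in each library. The small hepatocyte class held 106, 79 and 283 cells and had the highest nuclear share of any class (3.03%, 4.04% and 3.39%), with mitochondrial shares of 4.17%, 1.5% and 2.45%.

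**Figure D1:**
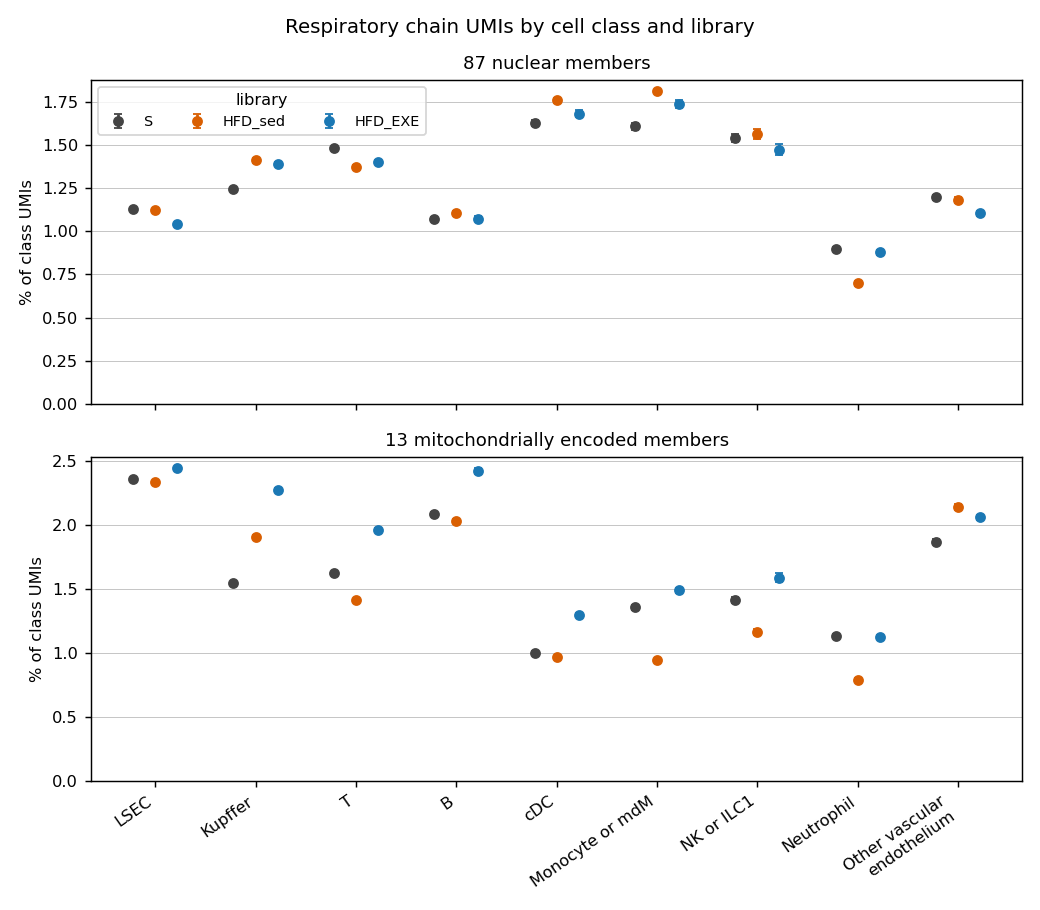
Percent of a class's UMIs from nuclear members and from mitochondrially encoded members, 1 point per library with exact 95% Poisson intervals (cDC, conventional dendritic cell, and mdM, monocyte-derived macrophage). LSEC and B cells pair nuclear shares of 1.04% to 1.13% with mitochondrial shares of 2.03% to 2.44%, and dendritic cells pair 1.63% to 1.76% with 0.965% to 1.29%.

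Differences between classes were also taken for single members. The highest and lowest class were picked for each member apart, so this choice and counting error widen the folds. They are therefore not set against those of the sums. Over the 9 classes, the level of a nuclear member in its highest class was a median of 2.58 times that in its lowest in S, 3.57 times in HFD_sed and 2.82 times in HFD_EXE, over 83, 82 and 83 members with more than 3 UMIs in the lowest class. Neutrophils were the lowest class for 53 of 87 nuclear members in all 3 libraries. The same ranking was not made over all genes, so whether this count is particular to the members was not tested. Ndufa5, an accessory subunit of complex I, stood at 13.8, 8.64 and 17.8 CPM (UMIs scaled to 1000000 per class and library) in neutrophils of S, HFD_sed and HFD_EXE, against 119, 102 and 100.2 CPM in LSEC. Ndufaf7, a methyltransferase that assists complex I assembly, was an exception, at 32.4, 28.3 and 27.5 CPM in neutrophils and 7.59, 8.84 and 7.53 CPM in Kupffer cells. Ndufa5 and Ndufaf7 were singled out after their values were seen.

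Cox5a, a structural subunit of complex IV, set Kupffer cells apart. Its level in Kupffer cells was 745 CPM in S, 752 CPM in HFD_sed and 777 CPM in HFD_EXE, and in LSEC 132, 135 and 124 CPM. The next highest of the 9 classes had 274, 332 and 306 CPM, dendritic cells in S and monocytes in the other two libraries. The Kupffer level was thus 2.73, 2.26 and 2.54 times the next class in S, HFD_sed and HFD_EXE. The hepatocyte class also had high Cox5a (428, 785 and 597 CPM), while hepatocyte markers took 0.260%, 0.149% and 0.208% of Kupffer UMIs. In all, 6 nuclear members had their highest level in Kupffer cells in all 3 libraries, a count without a share over all genes beside it. Among them were Sdhc and Sdhd, the membrane anchors of complex II, and Atp5g3, a gene for the c subunit of the ATP synthase ring. Sdhc stood at 95.9, 126 and 122 CPM in Kupffer cells and 33.2, 34.1 and 26.4 CPM in B cells. Cox5a, Sdhc and Sdhd were singled out after their values were seen.

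Cox6a2, the isoform of complex IV subunit 6a known from heart and skeletal muscle, was at 1024, 1142 and 1089 CPM in plasmacytoid dendritic cells of S, HFD_sed and HFD_EXE (82, 116 and 113 cells). In LSEC it was at 0.489, 0.480 and 1.13 CPM. A Cox6a2 UMI was found in 91.5% (95% interval 83.2 to 96.5), 89.7% (82.6 to 94.5) and 89.4% (82.2 to 94.4) of plasmacytoid cells, at median depths of 8810, 7964 and 8826 UMIs. The same share in LSEC, which gives the background from free RNA, was 0.367%, 0.283% and 0.611% at median depths of 6788.5, 5428 and 5220 UMIs. Conventional dendritic cells, deeper at 14082.5, 10191 and 13222 UMIs, had 2.34%, 1.81% and 2.40%. Cox6a2 was therefore far above background in 1 class, and that class was the same in each library.

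Cox6a1, the isoform found in most tissues, was also measured where Cox6a2 was high: it stood at 225, 218 and 256 CPM in plasmacytoid cells of S, HFD_sed and HFD_EXE and at 269, 244 and 264 CPM in LSEC. Both isoforms were thus counted in plasmacytoid dendritic cells, with Cox6a2 giving most of the UMIs. Of the other paired genes, Cox4i1, the common isoform of subunit 4, was measured in every class (553, 529 and 440 CPM in LSEC), and its lung isoform Cox4i2 reached 40 UMIs over all cells. Cox6b1, Cox7a2 and Cox8a stood at 224, 225 and 296 CPM in LSEC of S, while Cox6b2, Cox7a1 and Cox8b had 503, 213 and 17 UMIs over the 3 libraries. Cox7a2l, related to Cox7a2 and known for joining complexes III and IV into supercomplexes, was at 357, 373 and 297 CPM in LSEC. Ndufa4l2, known as a hypoxia-induced relative of Ndufa4, reached 31 UMIs. All of these low paralogs fell under the limit of 1000 UMIs and are not members.

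**Figure D2:**
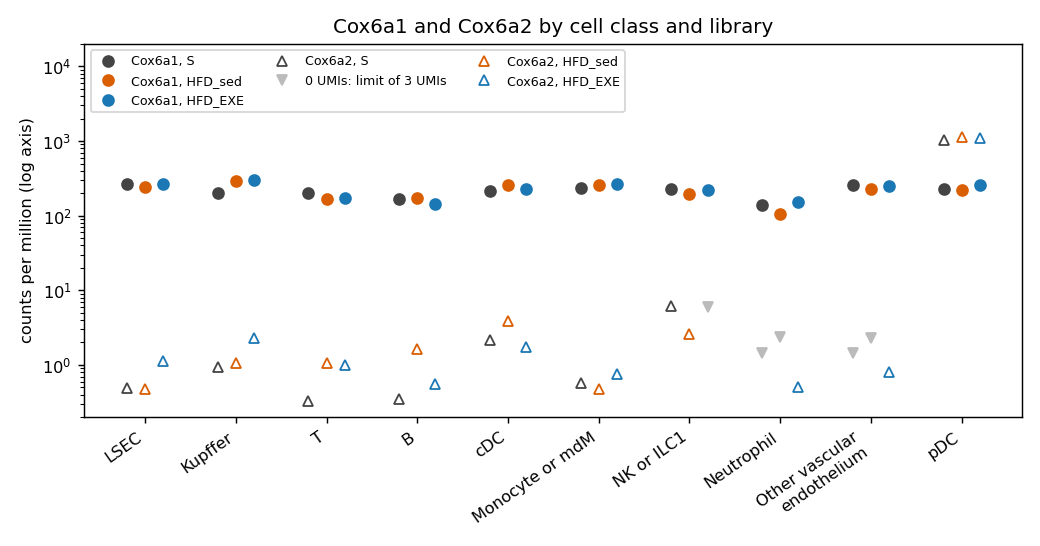
Levels of Cox6a1 and Cox6a2 in CPM by class, 1 point per library, on a log axis, with grey triangles at the level of 3 UMIs where none was counted (cDC and pDC, conventional and plasmacytoid dendritic cells). Cox6a2 is above 1000 CPM in plasmacytoid dendritic cells of all 3 libraries and below 10 CPM in the other classes shown, while Cox6a1 is measured in each of them.

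Promoter sequences bear on how nuclear members share control elements in their DNA. RefSeq windows (build GRCm38.p6, from 250 bases before to 50 after a start, whereas the study's files use GRCm39) were matched by symbol for 73 of 87 nuclear members, in 78 windows. The NRF1 motif (GCGCA, any base, GCGC) was found in 19 matched members (26.0%) and in 5.19% of all 27025 genes with a window. The motif CCGGAAG, bound by GABP and other ETS factors, was found in 19 members (26.0%) and 9.93% of genes, and the YY1 motif AAGATGGC in 11 members (15.1%) and 3.19% of genes. Both strands were searched, and an ETS and a YY1 match can overlap at the letters AAG. At least 1 of the 3 was in 42 members (57.5%) and 16.4% of all genes. A match is a description of the letters and was not tested as a binding site. The window of Cox6a1 is shown because it holds both NRF1 and ETS matches, that of Uqcrh because it is the nuclear complex III gene with the most UMIs, and that of Ndufa8 because this gene differed between libraries. Capitals mark motif matches, and each runs 5′ to 3′ on the gene's own strand.
Cox6a1 (chr5:115348909-115349208, minus strand): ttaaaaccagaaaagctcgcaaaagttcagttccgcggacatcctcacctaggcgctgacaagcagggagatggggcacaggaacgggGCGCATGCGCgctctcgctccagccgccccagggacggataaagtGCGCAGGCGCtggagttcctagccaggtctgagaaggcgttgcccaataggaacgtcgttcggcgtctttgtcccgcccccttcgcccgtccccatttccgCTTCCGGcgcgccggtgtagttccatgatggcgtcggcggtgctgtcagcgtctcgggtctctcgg
Uqcrh (chr4:116075021-116075320, minus strand): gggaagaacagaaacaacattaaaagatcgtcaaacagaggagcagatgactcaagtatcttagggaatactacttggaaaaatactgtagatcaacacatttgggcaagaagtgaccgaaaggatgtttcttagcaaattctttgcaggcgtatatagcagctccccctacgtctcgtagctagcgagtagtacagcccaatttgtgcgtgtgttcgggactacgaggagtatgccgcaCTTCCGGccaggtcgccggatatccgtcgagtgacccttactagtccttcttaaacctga
Ndufa8 (chr2:36049289-36049588, minus strand): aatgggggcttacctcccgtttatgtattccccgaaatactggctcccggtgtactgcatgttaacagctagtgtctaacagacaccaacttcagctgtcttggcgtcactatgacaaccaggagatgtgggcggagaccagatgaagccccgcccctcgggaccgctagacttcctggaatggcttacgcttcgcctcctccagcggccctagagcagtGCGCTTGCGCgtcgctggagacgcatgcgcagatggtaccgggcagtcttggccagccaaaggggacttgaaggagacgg
Cox6a1 carries 2 places that match NRF1 and 1 that matches the ETS motif, Uqcrh carries 1 ETS match, and Ndufa8 carries 1 NRF1 match.

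The comparison of HFD_sed with S asks how the members stood in a high fat diet library against the S library. A member counts as past the fold limit when its CPM differed at least 1.5-fold and it had at least 100 UMIs in both libraries together. In LSEC, 1 of 86 measured nuclear members was higher in HFD_sed and 2 were lower, when 12.8% of all 11678 measured genes were higher and 8.73% lower. The median log2 ratio was -0.00 for nuclear members and 0.08 for all measured genes. Both counts of nuclear members were below what those shares of all genes would give, which is a description of these libraries. The shares are not matched for level: members also had to reach a minimum count over the libraries together, and the other genes did not. Whether nuclear members differed from genes of similar counts was not tested, here or in the comparisons below. With an estimate of free RNA subtracted, which removed 44.8%, 66.4% and 30.7% of LSEC UMIs in S, HFD_sed and HFD_EXE, 1 was higher and 73 were lower of 82 in LSEC, and 74 were higher and 0 lower of 85 in HFD_EXE against HFD_sed. For HFD_sed against S the same subtraction gave 2 higher and 65 lower of 67 in Kupffer cells, 2 and 21 of 82 in T cells and 8 and 4 of 45 in B cells. Whether free RNA or the estimate itself gave these counts was not tested. By complex, the median log2 ratio in LSEC ran from -0.10 (complex I core) to 0.27 (complex I assembly factors), with complex III at -0.00, complex IV at -0.05 and complex V at 0.10.

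Ndufa8, an accessory subunit of complex I that lies on its intermembrane side, was the member with the clearest lower value in LSEC of HFD_sed. It was at 131 CPM in S, 77.0 CPM in HFD_sed and 97.9 CPM in HFD_EXE. The log2 ratio of HFD_sed to S was -0.76 (95% interval -0.86 to -0.67). The other vascular endothelium class, a single cluster in all libraries, had 233, 138 and 160 CPM, so S was highest there too. Kupffer cells did not share this order, at 79.9, 86.3 and 87.5 CPM. Within LSEC cluster 0 (59, 226 and 4254 cells in S, HFD_sed and HFD_EXE), Ndufa8 was at 140, 81.0 and 98.03 CPM. In cluster 6 (1089, 85 and 254 cells) it was at 136, 55.2 and 98.1 CPM. Values for clusters 1 and 3 are not given here, and cluster 1 held 69.6% of LSEC in S. Ndufv1, the core subunit that binds NADH and its flavin, stood at 42.2, 28.1 and 32.0 CPM in LSEC, with a log2 ratio of -0.59 (-0.75 to -0.42). Atp5g2, another gene for the c subunit, was the member past the limit upward, at 4.75, 7.89 and 8.70 CPM, and it has a near-identical copy elsewhere in the genome, so its counts are uncertain. The other c-subunit genes, Atp5g1 and Atp5g3, stood at 62.5, 64.2 and 56.0 CPM and at 164, 188 and 170 CPM in LSEC. The mature c subunit is the same protein from each gene.

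**Figure D3:**
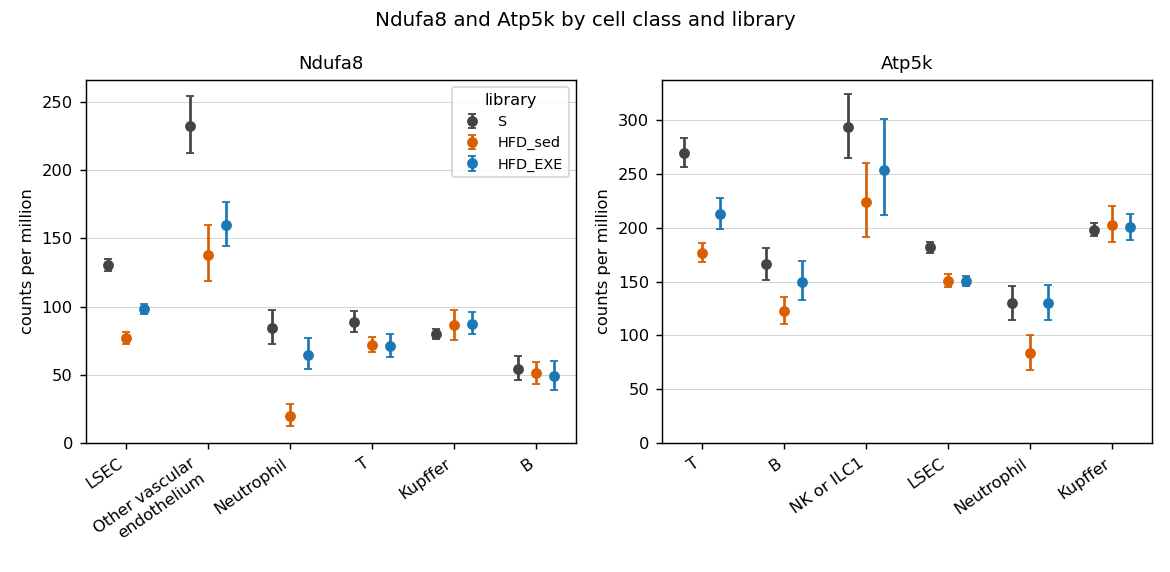
Levels of Ndufa8 and Atp5k in CPM by class, 1 point per library with exact 95% Poisson intervals. Ndufa8 is lowest in HFD_sed in LSEC (77.0 CPM) and other vascular endothelium (138 CPM), and Atp5k is lowest in HFD_sed in T cells (177 CPM).

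In Kupffer cells, 8 of 86 measured nuclear members were higher in HFD_sed than in S and 0 were lower, beside 8.32% and 8.34% of all 10487 measured genes. The count upward was near the share of all genes, but the median log2 ratio was 0.18 for nuclear members and 0.03 for all genes. Cox7b, a small subunit of complex IV, stood at 84.7 CPM in S, 158 CPM in HFD_sed and 134 CPM in HFD_EXE, a log2 ratio of HFD_sed to S of 0.90 (0.75 to 1.05). Atp5e, the epsilon subunit of the ATP synthase stalk, was at 265, 424 and 361 CPM (0.68, interval 0.58 to 0.77). The others past the limit were Atp5g2, Atp5l, Ndufa12, Ndufab1, Ndufaf8 and Ndufs5, between 0.61 and 0.79. Ndufab1 is the mitochondrial acyl carrier protein, which also serves fatty acid synthesis. In each of Cox7b and Atp5e, both HFD libraries were above S. The HFD_sed Kupffer class held 705 cells with a median of 2180 UMIs, against 2591 cells with 7635 UMIs in S, and 52.3% of it was the low-depth cluster. The part of depth, and of hepatocyte-like barcodes in cluster 8, in these ratios was not tested.

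In T cells, 2 of 85 measured nuclear members were higher in HFD_sed and 1 was lower, beside 10.1% and 7.57% of 9461 genes. Atp5k, a small subunit that helps ATP synthase form dimers, was the lower one, at 270 CPM in S, 177 CPM in HFD_sed and 213 CPM in HFD_EXE (log2 ratio -0.61, interval -0.71 to -0.51). The order held within clusters: HFD_sed was lowest of the 3 libraries in T clusters 5 (307, 181 and 252 CPM), 10 (197, 141 and 192 CPM), 11 (306, 156 and 220 CPM) and 13 (359, 204 and 234 CPM). B cells gave 166, 122 and 150 CPM and Kupffer cells 198, 203 and 200.3 CPM. The higher ones were Atp5g2 (10.8, 22.2 and 23.7 CPM) and Ndufaf5 (6.07, 9.13 and 5.44 CPM), an assembly factor counted from 86 UMIs or fewer per library. In B cells 0 of 81 nuclear members passed the limit in either direction, beside 5.87% higher and 7.44% lower of 6733 genes.

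The comparison of HFD_EXE with HFD_sed asks how the members stood in the HFD_EXE library against the HFD_sed library. It shares the HFD_sed library with the comparison before, so a low or high value in HFD_sed enters both with opposite signs. Nuclear members differed little. In LSEC 0 of 86 passed the limit in either direction, beside 8.35% higher and 10.6% lower of 11591 genes, with a median log2 ratio of -0.11 for members and -0.06 for all genes. In Kupffer cells 0 were higher and 1 lower of 80 (8.27% and 4.67% of 7855 genes), and the one was Ndufaf2, an assembly factor at 11.6, 16.3 and 10.6 CPM in S, HFD_sed and HFD_EXE. In T cells 0 were higher and 1 lower of 85 (6.72% and 8.70% of 9128 genes), and that one was Ndufaf5. In B cells 1 was higher and 0 lower of 79 (3.41% and 5.52% of 5903 genes). It was Ndufb4, an accessory subunit of complex I, at 23.5, 20.8 and 38.4 CPM, with a log2 ratio of 0.89 (0.38 to 1.40) from 64 and 70 UMIs.

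**Figure D4:**
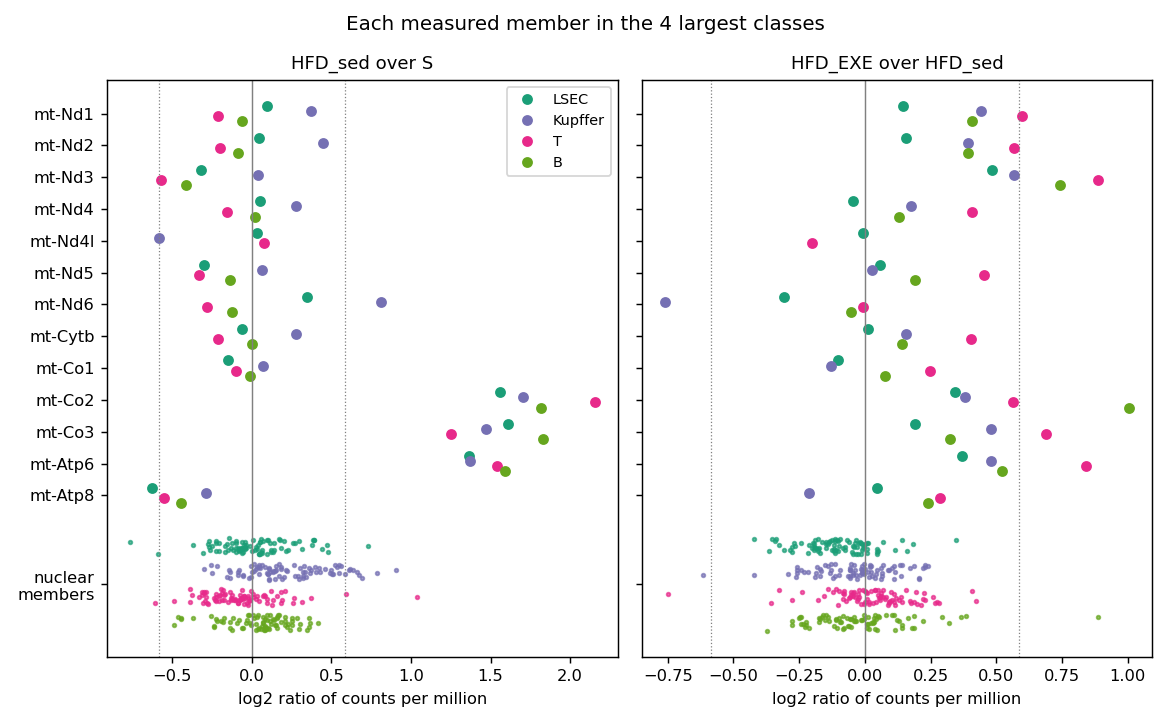
Log2 ratio of each measured member for HFD_sed over S and HFD_EXE over HFD_sed in LSEC, Kupffer, T and B cells, nuclear and mitochondrially encoded members apart, with dotted lines at 1.5-fold. Most nuclear members lie close to 0, and mt-Co2, mt-Co3 and mt-Atp6 stand apart at 1.25 to 2.15 in HFD_sed over S.

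The members with the most UMIs in their group of roles were mostly close between libraries. Atp5e and Ndufaf8 passed the limit in Kupffer cells, as given above. Ndufb1, an accessory subunit of complex I, was at 216, 181 and 187 CPM in LSEC of S, HFD_sed and HFD_EXE and at 333, 320 and 373 CPM in Kupffer cells. Among the assembly factors Ndufaf8 was at 33.7, 46.8 and 48.4 CPM in LSEC. Sdha, the catalytic subunit of complex II, stood at 139, 145 and 152 CPM. These values lay within 1.5-fold of each other across the libraries. Uqcrh, the hinge protein of complex III, stood at 366, 379 and 283 CPM in LSEC and 652, 630 and 596 CPM in T cells. Cox4i1, the largest nuclear subunit of complex IV, was at 585, 555 and 546 CPM in T cells, and Atp5e at 648, 595 and 616 CPM. Atp5e was thus more than 1.5-fold higher in T cells than in LSEC (242, 318 and 268 CPM) in each library, whereas Cox4i1 differed less between the same classes.

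Neutrophils had the most nuclear members past the limit of the 9 classes, and also the largest shares of all genes past it. Taking both directions together, the members passed it less often than all measured genes did. Those that passed lay in a single direction per comparison, and in that direction the members passed more often than all measured genes. In HFD_sed, 0 of 61 measured nuclear members were higher than in S and 18 were lower, and in HFD_EXE 15 of 59 were higher than in HFD_sed and 0 lower. Over 3859 measured genes 18.9% were higher and 21.3% lower in the first comparison, and over 3863 genes 21.2% were higher and 16.4% lower in the second. The makeup of the class moved with this result: cluster 7 held 96.6%, 37.9% and 96.1% of it in S, HFD_sed and HFD_EXE, and cluster 21 held 3.43%, 62.1% and 3.86%. Within cluster 7 alone, 0 were higher and 2 lower of 54 in HFD_sed, and 2 higher and 0 lower of 53 in HFD_EXE, beside 7.92% and 10.4%, and 12.6% and 6.37%, of all genes. The median log2 ratio of nuclear members went from -0.35 and 0.35 in the class to -0.09 and 0.09 in cluster 7. Most members past the limit in the class were thus not past it within that cluster, where fewer were measured. Ndufa8 stood at 84.4, 19.6 and 64.8 CPM in the class and at 86.3, 41.7 and 65.4 CPM in cluster 7, so S remained above HFD_sed there.

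The mitochondrially encoded members, relative to the nuclear ones, were higher in HFD_EXE than in HFD_sed in all 9 classes. The log2 ratio between the libraries' mitochondrial-to-nuclear UMI ratios was 0.17 (0.16 to 0.18) in LSEC, 0.28 (0.25 to 0.30) in Kupffer cells, 0.45 (0.43 to 0.46) in T cells and 0.30 (0.27 to 0.33) in B cells. It was largest in monocytes (0.72, interval 0.69 to 0.75) and smallest in other vascular endothelium (0.04, 0.01 to 0.08). In T and Kupffer cells the mitochondrial sums differed more than the nuclear sums, with log2 ratios of 0.47 against 0.03 and of 0.26 against -0.02. In LSEC the nuclear sum differed more (-0.11, against 0.06 for the mitochondrial sum). In HFD_sed against S the ratio was -0.00 (-0.02 to 0.01) in LSEC, 0.12 (0.10 to 0.14) in Kupffer cells, and -0.09 in both T (-0.11 to -0.07) and B cells (-0.12 to -0.06), with both signs among the 9 classes. The widest was again in monocytes, at -0.70 (-0.73 to -0.67). With free RNA subtracted, the ratio of HFD_EXE to HFD_sed turned to -2.57 in LSEC and -0.66 in B cells, and stayed positive in T (0.46) and Kupffer cells (0.25).

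In LSEC the difference between HFD_EXE and HFD_sed was not seen within clusters: it was -0.02, -0.53, -0.08 and -0.02 in clusters 0, 1, 3 and 6. In T cells it was positive in all 4 clusters (0.32, 0.20, 0.36 and 0.30 in clusters 5, 10, 11 and 13), and in Kupffer cells in both (0.48 in cluster 2 and 0.35 in the low-depth cluster 8). Monocyte clusters 9 and 20 gave 0.44 and 0.94. The class value of LSEC was thus not found inside any of its clusters, and the T, Kupffer and monocyte values were also present inside clusters. For HFD_sed against S the Kupffer clusters gave -0.05 and -0.92 where the class gave 0.12, so its direction depended on how the low-depth cluster was weighed. The T clusters gave 0.09, -0.06, 0.10 and 0.23. LSEC clusters 0, 1 and 6 gave 0.31, 1.10 and 0.16, where the LSEC class gave -0.00. The flat LSEC class value was thus not found inside these clusters. The library with fewer cells held 59, 60 and 85 cells in them, and cluster 3 held only 14 cells in S. Hepatocyte markers took 0.0636% of T cell UMIs in HFD_sed and 0.0861% in HFD_EXE, and 0.163% in S. Mitochondrial ribosomal RNA took 2.85% of T cell UMIs in HFD_sed and 2.95% in HFD_EXE, and 1.0% and 0.636% of Kupffer UMIs. The part of hepatocyte RNA, depth and cell quality in these ratios was not tested.

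**Figure D5:**
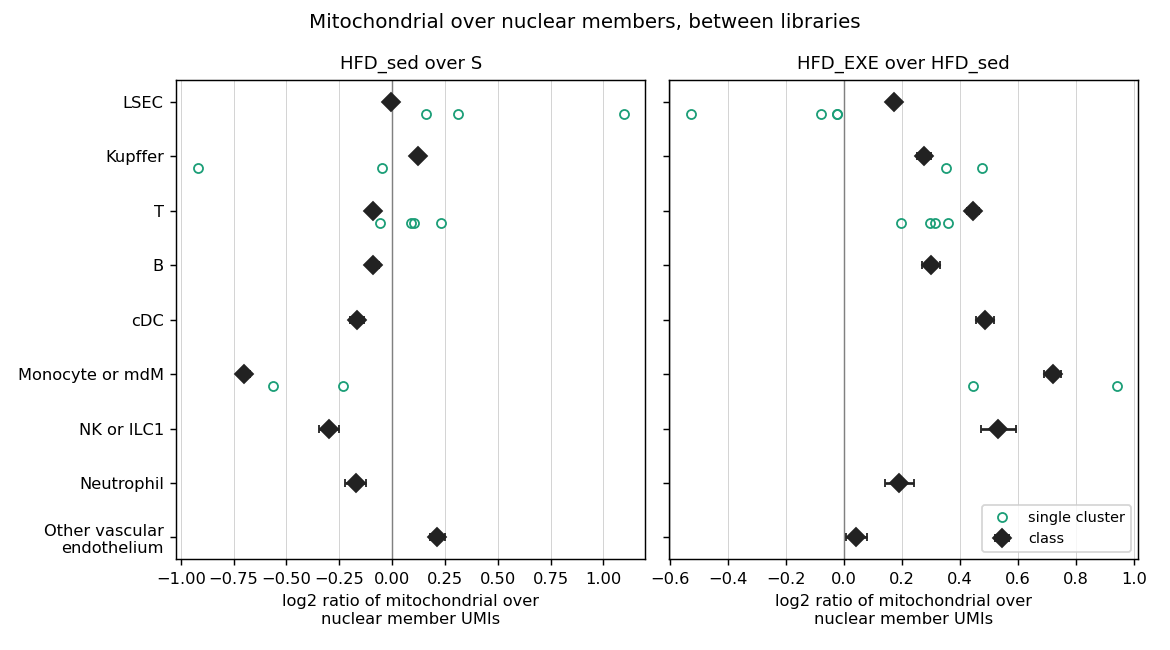
Log2 ratio of the mitochondrial-to-nuclear UMI ratio for HFD_EXE over HFD_sed and HFD_sed over S, for each class (diamonds, with 95% intervals) and for single clusters within it (open circles). For HFD_EXE over HFD_sed, the T and Kupffer clusters lie above 0 (0.20 to 0.48), and the LSEC clusters lie below 0.

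Among complex I genes of the mitochondrial genome, mt-Nd1, a membrane-arm subunit beside the quinone channel, was at 2656, 2294 and 3474 CPM in T cells of S, HFD_sed and HFD_EXE and at 2719, 3521 and 4778 CPM in Kupffer cells. HFD_EXE was the highest library in both, and in LSEC (3643, 3887 and 4301 CPM) and B cells (3329.7, 3187 and 4231 CPM). The log2 ratio of HFD_EXE to HFD_sed was 0.60 (0.57 to 0.63) in T cells. Its neighbour mt-Nd2 gave 4574, 4719 and 5262 CPM in LSEC and 3127, 2724 and 4031.5 CPM in T cells. mt-Nd3 was at 627, 503 and 703 CPM in LSEC and 449.7, 302 and 559 CPM in T cells, with ratios of HFD_EXE to HFD_sed of 0.48 and 0.88. HFD_sed was the lowest library for mt-Nd3 in LSEC, T and B cells (613, 460 and 770 CPM), and in Kupffer cells S was (425, 436 and 646 CPM). mt-Nd4 and mt-Nd5, the large proton-pumping subunits, moved less between HFD_sed and HFD_EXE in LSEC (-0.04 and 0.06) than in T cells (0.41 and 0.45). mt-Nd4l, the smallest, stood at 11.1, 11.4 and 11.3 CPM in LSEC. mt-Nd6, the one protein gene on the opposite strand of the mitochondrial genome, went another way in Kupffer cells, at 37.4, 65.8 and 38.8 CPM, a log2 ratio of HFD_EXE to HFD_sed of -0.76 where that of mt-Nd1 was 0.44.

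mt-Cytb, the only mitochondrially encoded subunit of complex III, had the most UMIs of the 100 members, at 6373, 6109.6 and 6154 CPM in LSEC and 4711, 4061 and 5372 CPM in T cells. Its ratio of HFD_EXE to HFD_sed was 0.01 in LSEC and 0.40 in T cells. mt-Co1, the catalytic core of complex IV, was at 1701, 1533 and 1428 CPM in LSEC and 1304, 1217 and 1444 CPM in T cells. The ATP synthase subunit mt-Atp8 was lower in HFD_sed than in S in all 4 of these classes, at 526, 341 and 352 CPM in LSEC, a log2 ratio of -0.63 (-0.67 to -0.58). It was at 391, 267 and 325 CPM in T cells, 508, 373 and 440.4 CPM in B cells and 313, 257 and 222 CPM in Kupffer cells.

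mt-Co2, mt-Co3 and mt-Atp6 departed from the rest. mt-Co2, the complex IV subunit that receives electrons from cytochrome c, was at 9.19, 27.1 and 34.3 CPM in LSEC of S, HFD_sed and HFD_EXE and at 6.39, 28.5 and 42.0 CPM in T cells. mt-Co3, another core subunit, was at 18.3, 56.0 and 63.9 CPM in LSEC, and mt-Atp6, the proton channel subunit of ATP synthase, at 59.9, 155 and 199 CPM. S was the lowest library for all 3 genes in LSEC, Kupffer, T and B cells, with log2 ratios of HFD_sed to S from 1.25 (mt-Co3 in T cells) to 2.15 (mt-Co2 in T cells). These were the only mitochondrial members higher past 1.5-fold in HFD_sed in LSEC, T and B cells, and in Kupffer cells mt-Nd6 joined them. They held 0.441%, 1.32% and 1.38% of the mitochondrial members' UMIs in S, HFD_sed and HFD_EXE, so they hardly entered the sums.

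These genes have near-identical nuclear copies in the annotation, so a read can fit both places. In all, 6 mitochondrial members have one. The stretches below are shown because mt-Co2 and its copy Gm28661 had 0 differences over 497 aligned bases, while mt-Nd3 and its copy Gm28438 had 1 over 345, marked in capitals.
mt-Co2: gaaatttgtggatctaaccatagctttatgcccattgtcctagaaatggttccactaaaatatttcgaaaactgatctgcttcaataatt
Gm28661: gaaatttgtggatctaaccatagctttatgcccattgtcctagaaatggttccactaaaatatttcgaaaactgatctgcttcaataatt
mt-Nd3: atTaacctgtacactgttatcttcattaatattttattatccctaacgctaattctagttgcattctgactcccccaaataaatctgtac
Gm28438: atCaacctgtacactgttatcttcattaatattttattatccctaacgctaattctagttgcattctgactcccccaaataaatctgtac
Over all kept cells, mt-Co2 stood at 8.12, 23.3 and 34.2 CPM in S, HFD_sed and HFD_EXE and Gm28661 at 2.67, 2.32 and 3.47 CPM. mt-Co3 stood at 18.8, 50.1 and 67.4 CPM and its copy Gm28437 at 3.46, 2.74 and 3.91 CPM. For mt-Atp6 the values were 55.8, 133 and 198 CPM, and for its copy Gm10925 2.73, 2.27 and 4.29 CPM. The copies thus did not rank the libraries as these members did. How such reads were counted is not stated in the labels, so the levels of members with copies are uncertain. The 7 mitochondrial members without a copy held 89.4%, 88.8% and 89.7% of the mitochondrial UMIs.

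Counts of mitochondrial members past the limit follow, with the shares of all genes in parentheses. In HFD_sed against S, 3 were higher and 1 lower of 13 in LSEC (12.8% and 8.73%), and 4 and 0 of 13 in Kupffer cells (8.32% and 8.34%). T cells had 3 and 0 of 13 (10.1% and 7.57%) and B cells 3 and 0 of 12 (5.87% and 7.44%). In HFD_EXE against HFD_sed, 0 and 0 of 13 passed in LSEC (8.35% and 10.6%), and 0 and 1 of 12 in Kupffer cells (8.27% and 4.67%). T cells had 4 and 0 of 13 (6.72% and 8.70%) and B cells 2 and 0 of 12 (3.41% and 5.52%). The 4 in T cells were mt-Nd1, mt-Nd3, mt-Co3 and mt-Atp6. Monocytes had 7 higher and 0 lower of 12 in HFD_EXE against HFD_sed, beside 9.97% and 6.94% of 8131 genes. There mt-Nd1 was at 2329, 1550.0 and 2656 CPM and mt-Nd3 at 405, 205 and 479 CPM, with HFD_sed the lowest library for both.

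Within single cells no clear positive link between nuclear and mitochondrial members was seen. Each cell was thinned to 1000 UMIs, and shallower cells were left out (186 of 705 Kupffer cells in HFD_sed). At that depth nuclear members averaged 0.695% to 1.74% of UMIs, few enough that counting error draws a correlation towards 0. Spearman's rho between a cell's nuclear and mitochondrial member shares ran from -0.35 to 0.01 over the 9 classes and 3 libraries. Cells share depth and library, and the shares add to a fixed total, so this is a description. Cells left out for a mitochondrial share of 15% or more had nuclear shares of 0.631%, 0.681% and 0.720% in S, HFD_sed and HFD_EXE, against 1.28%, 1.42% and 1.23% in cells under 10%. A high mitochondrial share lowers the nuclear share of all UMIs by construction, and as a share of the other UMIs the values were 0.95%, 0.918% and 0.989% against 1.32%, 1.47% and 1.28%. Such cells made up 0.938%, 3.14% and 8.19% of cells assigned to T and 2.05%, 10.2% and 3.71% of those assigned to Kupffer.

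Other genes of mitochondrial function, taken from 8 lists with 134 genes, gave few values past 1.5-fold, and the shares of all genes above apply to them. Of 10 carriers of ADP, phosphate and protons, 0 were higher and 1 lower of 9 measured in LSEC of HFD_sed against S, and 1 higher and 0 lower in HFD_EXE against HFD_sed. Both were Ucp2, an inner membrane carrier of the uncoupling protein family, at 302 CPM in S, 186 CPM in HFD_sed and 586 CPM in HFD_EXE (log2 ratios -0.69 and 1.65). Ucp2 stood at 1256, 1155 and 1702 CPM in Kupffer cells. Of 21 import and quality genes, 3 were higher and 0 lower in LSEC of HFD_sed: Bnip3 and Bnip3l, receptors for removal of mitochondria by autophagy, and the chaperonin partner Hspe1. Bnip3 was at 29.4, 95.1 and 48.9 CPM, and it was the 1 gene of this list lower in HFD_EXE against HFD_sed (-0.96). In T and B cells the 1 gene higher in HFD_EXE was Pink1, the kinase that marks damaged mitochondria, at 39.5, 29.4 and 51.9 CPM in T cells and 53.6, 32.2 and 60.4 CPM in B cells. Pink1 was also the 1 higher gene in Kupffer cells (70.9, 38.9 and 62.6 CPM).

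Of 16 genes for mitochondrial DNA upkeep and transcription, 1 was higher and 1 lower of 15 in LSEC of HFD_sed against S, and 0 were higher and 3 lower in HFD_EXE against HFD_sed. The lower ones were Tfam, which packages mitochondrial DNA and starts its transcription (25.1, 33.1 and 21.2 CPM), the RNA polymerase Polrmt and the DNA polymerase subunit Polg2. In T cells, where the mitochondrial members were higher in HFD_EXE, Tfam stood at 47.1, 48.6 and 45.5 CPM, and 0 of 12 genes of this list passed the limit. Of 14 electron carrier genes, 2 were higher and 0 lower of 10 in Kupffer cells of HFD_EXE: Gpd2, which feeds electrons from glycerol phosphate (31.0, 28.6 and 73.8 CPM), and Etfdh. Cycs, cytochrome c, was at 47.4, 78.7 and 46.7 CPM in B cells. Among 34 assembly factors of complex IV and others, 4 were higher and 1 lower of 34 in Kupffer cells of HFD_sed, with Cox17, the copper chaperone of complex IV, at 88.9, 141 and 156 CPM. Of 17 TCA cycle genes, 1 was higher and 0 lower in LSEC of HFD_sed, Suclg2, at 42.7 CPM in S and 82.6 CPM in HFD_sed. Of 14 regulators, 3 were higher and 0 lower of 12 in LSEC of HFD_sed, with Hif1a at 95.6 and 147 CPM. In T cells 2 of 12 regulators were higher and 1 lower in HFD_sed. The higher ones, Nrf1 and Gabpa, encode factors that bind the promoter motifs above (40.3 to 61.9 CPM and 32.5 to 50.8 CPM from S to HFD_sed), and the nuclear members had a median log2 ratio of -0.08. Of 8 antioxidant genes, 1 was higher and 0 lower in LSEC of HFD_sed, Txn2, at 39.4 and 69.8 CPM.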

How the data were processed

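The deposited files hold raw UMI counts per gene and cell barcode, 1 matrix for each library. Per the submitters' processing notes they were made with Cell Ranger 6.1.2 and GRCm39. For the annotation and the counting options the sources used here give nothing. A barcode was kept when it had 500 UMIs and 300 genes or more and a mitochondrial share below 15%. Doublets were scored with Scrublet at 1 threshold for all libraries (0.219, averaged from the automatic values for S and HFD_sed, since that for HFD_EXE marked 0 cells), which removed 403, 328 and 295 cells. Clusters came from scanpy 1.11.5 and leidenalg 0.10.2 (2000 variable genes without the members and without mitochondrial genes, 30 principal components, 15 neighbours, resolution 1). The thresholds of the naming rule were set after the clusters were seen. A cluster needed 3 markers of a type. The kept cells summed to 76875425, 59432022 and 57099173 UMIs in S, HFD_sed and HFD_EXE.

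UMIs of each class were added up within a library and scaled to 1000000 (CPM). A 3′ kit tags each molecule once, so levels are not scaled by transcript length. Where a sum was 0, the limit is 3 counts. Class sums cannot tell fewer cells from less RNA per cell, since each is a share of the class's own UMIs. Near-identical copies were sought with blastn 2.17.0 over the last 500 bases of transcripts: 11 nuclear members have one (Atp5g2, Atp5h, Atp5l, Atp5pb, Cox5b, Cox7c, Ndufb9, Ndufs3, Ndufs5, Uqcr11 and Uqcrb), and their counts are uncertain. The counting and ratio steps were tested on simulated data. Alternatives varied the filters, clustering, summing and scaling, and subtracted free or hepatocyte RNA. Members and gene lists were chosen with earlier results of these data known. Genes named are the member with most UMIs per role (1 is not reported here), up to 3 per direction, class and comparison by interval bound at 20 CPM or more, isoform sets, all mitochondrial members and up to 3 per list. Other genes named beside a count, and those said to be singled out, were chosen after their values were seen. Library E was not analysed here.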

Additional observations from a re-analysis of the deposited data

How the results depend on the processing

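Of 92 class ratios of mitochondrial to nuclear UMIs under alternatives, 42 stayed within the counting interval, 41 moved beyond it and 9 whose own interval excluded 0 changed sign, and of 56 counts of nuclear members past 1.5-fold, 39 stayed within 1.5 times and 17 did not. The LSEC ratio of HFD_sed over S, whose interval included 0, took both signs. Values follow as HFD_sed over S, then HFD_EXE over HFD_sed. With no mitochondrial limit the log2 ratios were -0.0898 and 0.12 (LSEC) and 0.32 and 0.11 (Kupffer), with 0.50 for T cells in the second and a Kupffer count of 0. Under 10% mitochondrial UMIs they were -0.0292 and 0.19 (LSEC) and 0.0343 and 0.36 (Kupffer), with -0.13 for T cells in the first. With doublets kept they were 0.18 and 0.25 (Kupffer) and -0.0726 and 0.42 (T), with 0.13 for LSEC in the second and -0.0380 for B cells in the first. At resolution 0.5 Kupffer gave -0.25, a change of sign, and 0.59, and LSEC 0.15 in the second. At resolution 2 LSEC gave 0.0654 and 0.19 and Kupffer 0.19 in the first. Without low-depth clusters Kupffer gave -0.0462, a change of sign, and 0.48, with a count of 0 in the second. As a mean of the cells' own shares, Kupffer gave -0.29, a change of sign, and 0.23, B cells -0.0469 and 0.26, and LSEC and T cells -0.0457 and -0.0147 in the first. Thinned to 1000 UMIs per cell, Kupffer gave -0.00622, a change of sign, and 0.14, T cells -0.12 and 0.54, LSEC -0.0513 in the first and B cells 0.25 in the second.

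Subtracting free RNA removed 22.3% to 84.0% of class UMIs. The ratios became 2.49 and -2.57 (LSEC, the second reversed), 1.59 and 0.25 (Kupffer), 0.17 (reversed) and 0.46 (T), and 0.23 and -0.66 (B, both reversed). The counts became 74 and 74, 67 and 69, 23 and 23, and 12 and 34 for LSEC, Kupffer, T and B. Subtracting the hepatocyte class profile instead, an alternative chosen after seeing the data, removed 0.605% to 2.41% and gave -0.0227 (LSEC) and -0.13 (B) in the first and Kupffer counts of 13 and 0. Within single clusters, LSEC gave 0.16 and -0.0244, the second reversed, in cluster 6. Cluster 10 of the T cells, added after seeing the data, gave -0.0561 and 0.20. With no minimum beyond 1 UMI the counts were 1 (LSEC), 3 (Kupffer) and 2 (T) in the second and 3 and 3 (B). The cause of these changes was not tested. Scaling by the median gene shifted log2 values by -0.08 to 0.10. The T and Kupffer ratios of HFD_EXE over HFD_sed were positive in every setting run. No paired analysis was possible because the libraries share no replicate number. Leaving out a replicate was not possible with 1 library per group. Depth limits low members most where few were measured, as in neutrophils (61 and 59 of 87).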

Other observations

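Classes not described above add to the picture of the same 100 genes. NK or ILC1 cells, a single cluster in all libraries, had nuclear shares of 1.54%, 1.56% and 1.47% in S, HFD_sed and HFD_EXE, and mitochondrial shares of 1.41%, 1.16% and 1.59%. Their ratio of mitochondrial to nuclear UMIs was 0.916, 0.744 and 1.08. Plasmacytoid dendritic cells, which held the Cox6a2 counts, had ratios of 0.946, 0.810 and 1.03. HFD_sed was the lowest library in both classes. The hepatocyte class had wider differences: its log2 ratio was -1.89 for HFD_sed over S and 0.97 for HFD_EXE over HFD_sed, from 106, 79 and 283 cells.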
